A study of Homo sapiens with 6 samples.

Results

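The endoplasmic reticulum (ER) folds secreted and membrane proteins, and 32 genes of its unfolded protein response and of ER-associated degradation were followed in HCT116 cells, a human colorectal carcinoma line, after an siRNA against CPT2. The genes were taken by name from a table of 24154 genes, where each had 1 row, and all 32 had enough counts to be tested among 15302 genes. They comprised 14 chaperones and folding enzymes, 10 genes of ER-associated degradation, 6 stress sensors and transducers, and 2 genes of protein entry into and export from the ER. Both groups were HCT116 cells in logarithmic growth: 3 libraries came from cells given siCPT2 for 48 h (CPT2 knockdown), and 3 from cells given a negative control siRNA for the same time (NC). How many siRNAs were used, their sequences and whether the replicates were separate cultures are not given in the labels, so a p-value here reflects the spread among these libraries alone, which may be technical. CPT2, carnitine palmitoyltransferase 2, releases long-chain acyl groups from carnitine inside mitochondria for fatty acid oxidation.

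Nascent proteins enter the ER through the SEC61 channel and are folded by chaperones of the HSP70, HSP90 and lectin classes and by protein disulfide isomerases. When unfolded proteins accumulate, the membrane sensors IRE1 (gene ERN1), PERK (EIF2AK3) and ATF6 are activated. IRE1 splices XBP1 mRNA into the form that encodes an active transcription factor, PERK phosphorylates the translation factor eIF2 alpha, and ATF6 travels to the Golgi to be cut by the proteases S1P (MBTPS1) and S2P. The resulting factors raise transcription of chaperones and of degradation genes. In ER-associated degradation (ERAD), misfolded proteins are recognised by lectins, moved to the cytosol through a membrane complex around the ubiquitin ligase HRD1 (SYVN1), extracted by the ATPase VCP and given to the proteasome.

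Libraries held 28353790 to 29449380 counts. CPT2 had 492, 597 and 553 counts in CPT2 knockdown replicates 1, 2 and 3, against 709, 881 and 911 counts in NC replicates 1, 2 and 3. All knockdown libraries were below all NC libraries, at a log2 fold change of -0.44 (SE 0.17) that was not called by edgeR (adjusted p = 0.338); an exact 2-sided permutation test of the scaled counts gave 0.1, the smallest p that 3 against 3 allow. With offsets for transcript GC content and length the log2 fold change of CPT2 was 0.02 (edgeR, adjusted p = 0.975). Knockdown replicate 1 stood apart on the first principal component, with a score of -76.6 against -16.03 to 44.6 in the other 5 libraries. Mitochondrially encoded transcripts made up 17.0%, 15.6% and 8.99% of counts in the knockdown libraries and 10.5%, 10.8% and 10% in the NC libraries. The epithelial genes KRT8, KRT18 and ELF3 were abundant (KRT8 at 28140 to 38864 counts), and CLDN4 had 579 to 941 counts. EPCAM, CDH1 and KRT19 were low, at 84 to 121, 26 to 91 and 6 to 39 counts. Of genes that mark other cells, COL1A1 had 1759 to 3236 counts and COL1A2 had 2 to 14. PECAM1 had 7 to 25 counts, VWF had 18 to 31, and COL3A1, PTPRC, CD3E and LYZ had at most 4.

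At the level of transcripts per length, the ER chaperones were the most abundant of the 32 genes. The authors' FPKM values, a level per gene length and library size, were highest for CALR, with 551 ± 31.6 FPKM in CPT2 knockdown cells and 523 ± 17.0 FPKM in NC cells (SD, n = 3 each). HSP90B1 followed with 289 ± 39.2 FPKM in knockdown and 398 ± 26.2 FPKM in NC cells, and HSPA5 with 265 ± 25.4 FPKM in knockdown and 375 ± 17.5 FPKM in NC cells. CANX had 193 ± 59.2 FPKM in knockdown and 311 ± 17.6 FPKM in NC cells. The sensors and the membrane scaffold of ERAD lay at the other end of the range. SEL1L had 2.44 ± 0.920 FPKM in knockdown and 4.30 ± 0.621 FPKM in NC cells, and ERN1 had 4.24 ± 0.613 FPKM in knockdown and 4.95 ± 0.614 FPKM in NC cells.

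Many ER stress genes carry the ER stress response element in their promoters, to which ATF6 and XBP1 bind, and the promoters of the 32 genes were searched for it. RefSeq promoter windows (GRCh38.p14, from 250 bases before to 50 bases after each start) were found for 28 of the genes, as 35 windows; DERL1, DERL3, PDIA3 and SEC24D had none. Searched on both strands, the element ERSE (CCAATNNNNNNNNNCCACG) was present for HSPA5, HSP90B1, PDIA6, CALR, CANX, CRELD2 and XBP1, and in 0.0769% of all 35116 windows. The related ERSE-II (ATTGGNCCACG) was present for SDF2L1, HYOU1 and HERPUD1, and in 0.0541% of all windows. The element UPRE (TGACGTGG) was found for HYOU1, where it overlaps an ERSE-II, and for VCP, and in 0.729% of all windows. The sequences below are those of chaperones, of HERPUD1 and of XBP1, shown because the element lies in the window of a gene whose values are given below; they read 5′ to 3′ on the strand of the gene, and capitals mark the element. An element beginning with CGTGG lies in the reverse direction.
HSPA5, chr9:125241361-125241439, minus strand: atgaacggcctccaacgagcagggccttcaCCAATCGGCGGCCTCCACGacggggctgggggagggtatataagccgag
CALR, chr19:12938359-12938432, plus strand: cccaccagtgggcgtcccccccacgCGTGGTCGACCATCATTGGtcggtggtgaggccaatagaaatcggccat
HYOU1, chr11:119057350-119057420, minus strand: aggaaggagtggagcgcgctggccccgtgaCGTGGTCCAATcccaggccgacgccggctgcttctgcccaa
SDF2L1, chr22:21642084-21642154, plus strand: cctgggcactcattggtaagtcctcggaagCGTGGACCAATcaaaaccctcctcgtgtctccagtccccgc
HSP90B1, chr12:103930216-103930234, plus strand: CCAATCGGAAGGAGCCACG
CANX, chr5:179698778-179698796, plus strand: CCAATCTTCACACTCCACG
XBP1, chr22:28800603-28800621, minus strand: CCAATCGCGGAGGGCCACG
HERPUD1, chr16:56932025-56932035, plus strand: ATTGGGCCACG
A match describes the letters of the window and is neither a shown binding site nor a cause. Among the 10 genes with an ERSE or ERSE-II, 7 had a log2 fold change below 0 and 3 above, with a median of -0.17. Among the 18 genes with a window and neither element, 12 were below 0 and the median was -0.21. With offsets for GC content and length, all 10 genes with an element were below 0 (median -0.15), as were 14 of the 18 genes with neither (median -0.14).

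None of the 32 genes passed the main test, that of edgeR, between CPT2 knockdown and NC cells over all genes. Most were lower in the knockdown libraries. By edgeR 0 of 32 were called at an adjusted p under 0.05, where 0.0131% of all 15302 genes were called, and their adjusted p-values ran from 0.338 to 0.956. At an unadjusted p under 0.05, 10 of the 32 were lower and 1, OS9, was higher in knockdown cells, where the shares over all genes were 5.29% lower and 9.18% higher. DESeq2 called 1 of the 32, HERPUD1, where it called 0.118% of all genes. The labels state no pairing of libraries. With the replicate number as a block, edgeR called 5 of the 32, at adjusted p-values of 0.0479 to 0.0499, where it called 4.14% of all genes. In the authors' deposited table, whose calls were made at an unadjusted p of 0.01 and a fold of 1.5 per the file headers, CANX, HERPUD1, EDEM1 and SEL1L were called down and none was called up, where 1.38% of all genes were called down and 2.77% up. Log2 fold changes (CPT2 knockdown over NC) were below 0 for 22 genes and above 0 for 10, with a median of -0.17, against 49.3% below 0 and a median of 0.01 over all genes; without knockdown replicate 1, 25 were below 0 and the median was also -0.17. For 15 genes all knockdown libraries were below all NC libraries, where 12.2% of all genes had that order, and for 1 gene, CALR, all were above, where the share was also 12.2%. Together the 32 genes took 0.584%, 0.720% and 0.719% of counts in knockdown replicates 1, 2 and 3, against 0.878%, 0.851% and 0.865% in NC replicates 1, 2 and 3. Totals here include mitochondrially encoded transcripts, and with scaling by library size alone the median log2 fold change of all genes was -0.13. HSPA5, HSP90B1, CALR and CANX had the most counts of the 32 in every library. In bulk RNA, fewer cells that express these genes and less of their RNA per cell cannot be told apart.

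**Figure D1:**
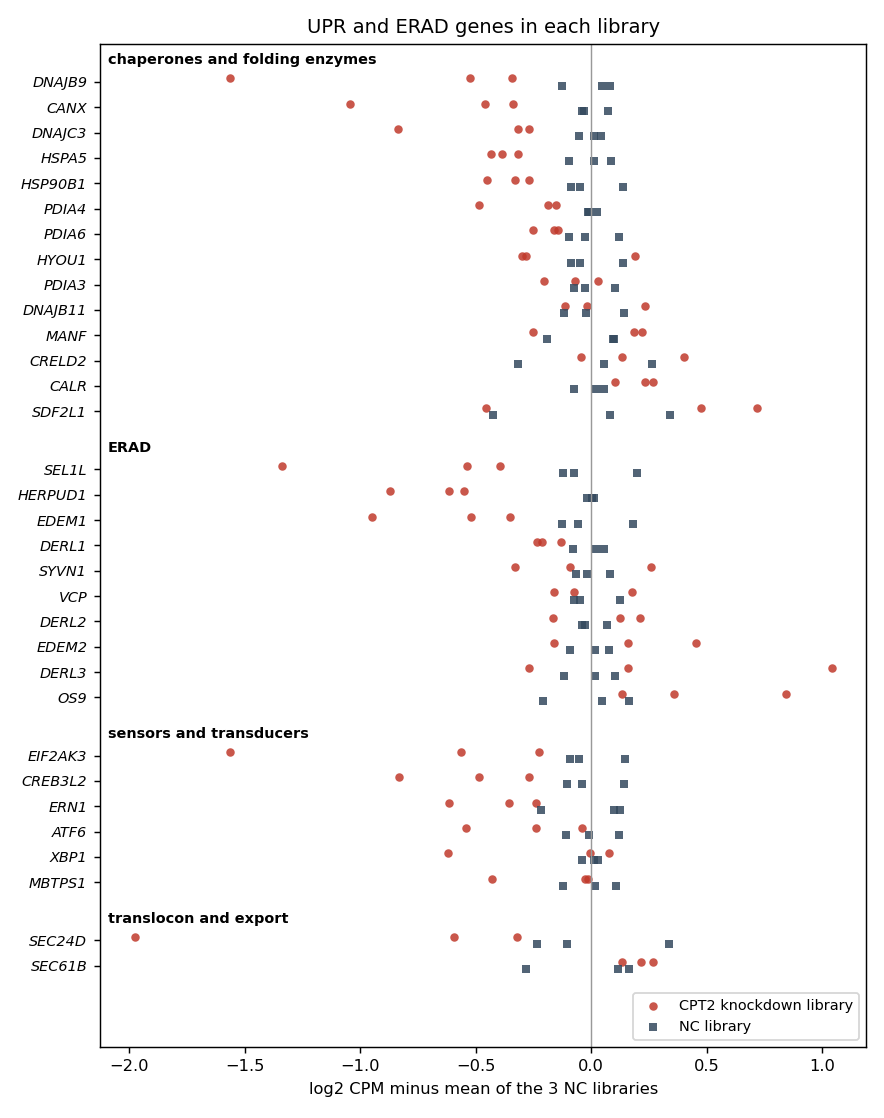
Log2 CPM of each of the 32 genes in each library, as the difference from the mean of the 3 NC libraries (x axis), with genes in rows by role. Red circles are CPT2 knockdown libraries and dark squares NC libraries; for 15 genes, among them HSPA5, CANX, HERPUD1 and EIF2AK3, all 3 circles lie left of all 3 squares.

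Of the 14 chaperones and folding enzymes, 7 were lower in every CPT2 knockdown library than in any NC library. That order took 12.2% of all genes. Among the 7 were HSPA5, HSP90B1 and CANX, while 1 gene, CALR, was higher, where the share was also 12.2%. With offsets for GC content and length, 4 of the 14 were lower in this way, where 10.7% of all genes were. Values are CPM, counts scaled to a common library size, given in the order of replicates 1, 2 and 3. HSPA5 encodes BiP, the HSP70 chaperone that binds unfolded chains and holds the sensors inactive, and it had 1135, 1099 and 1191 CPM in CPT2 knockdown cells, against 1571, 1387 and 1495 CPM in NC cells. Every knockdown library of HSPA5 (ENSG00000044574, minus strand of chromosome 9, positions 125234853 to 125241330, GRCh38) lay below every NC library, and the fitted difference was 23.1% (log2 fold change -0.38, SE 0.12, 95% interval -0.66 to -0.10; edgeR, adjusted p = 0.338). HSP90B1, the ER form of HSP90 (GRP94), had 833, 946 and 907 CPM in knockdown cells, against 1251, 1071 and 1102 CPM in NC cells. Its groups did not overlap on the counts as deposited, at a log2 fold change of -0.35 (SE 0.13); with the GC and length offsets described below its log2 fold change was -0.09 and the groups overlapped. HYOU1, a nucleotide exchange factor and chaperone related to HSP70, showed no such gap (log2 fold change -0.12, SE 0.17); without knockdown replicate 1 its value was -0.30.

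Among the J-domain partners of BiP, DNAJB9 and DNAJC3 were lower in every knockdown library and DNAJB11 was not. DNAJB9 (ERdj4), which delivers BiP to IRE1, had 9.25, 21.6 and 19.1 CPM in knockdown cells, against 25.2, 28.4 and 29.04 CPM in NC cells. The groups did not overlap, and knockdown replicate 1 was the lowest by far (log2 fold change -0.73, SE 0.29, and -0.45 without that library). DNAJC3 (p58IPK), a co-chaperone that also inhibits PERK, had 53.4, 79.3 and 76.8 CPM in knockdown cells, against 96.4, 98.5 and 92.0 CPM in NC cells. Its knockdown libraries were likewise all lower (log2 fold change -0.45, SE 0.18), but with the offsets its log2 fold change was -0.04. DNAJB11 (ERdj3), which acts on nascent chains, was close to level at 0.04 (SE 0.16) and at 0.54 (SE 0.33) with the offsets, and 451 bases of its exons are shared with another gene on the same strand. SDF2L1, which joins DNAJB11 in a complex, had 19.7, 10.3 and 23.3 CPM in knockdown cells, against 15.0, 10.5 and 18.0 CPM in NC cells. It spread widely in both groups, and its log2 fold change of 0.29 (SE 0.32) became -0.36 with the offsets.

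Among the lectin chaperones, which hold glycoproteins until they fold, calnexin was lower and calreticulin higher in every knockdown library on the counts as deposited, but calreticulin was not higher with the offsets. CANX, the membrane lectin, had 644, 1051 and 966 CPM in knockdown cells, against 1300, 1399 and 1293 CPM in NC cells. The groups were apart, with a fitted difference of 33.3% (log2 fold change -0.59, SE 0.19; edgeR, adjusted p = 0.338), and knockdown replicate 1 was the lowest library. With the offsets the groups were still apart, at a smaller log2 fold change of -0.28 (SE 0.09). CALR, its soluble counterpart, had 1213, 1182 and 1082 CPM in knockdown cells, against 1045, 957 and 1020 CPM in NC cells. All of its knockdown libraries were higher, by a log2 fold change of 0.20 (SE 0.12; edgeR, adjusted p = 0.384), which was -0.03 with the offsets, so its direction depended on them. PDIA3, the disulfide isomerase that works with both lectins, had a log2 fold change of -0.08 (SE 0.13).

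PDIA4 and PDIA6, disulfide isomerases that form and rearrange disulfide bonds, were lower in every knockdown library on the counts as deposited. PDIA4 (ERp72) had 179, 221 and 226 CPM in knockdown cells, against 249, 249 and 255 CPM in NC cells. The NC libraries were close together and all above the knockdown libraries (log2 fold change -0.27, SE 0.14), and the offsets gave -0.38. PDIA6 (P5) had 269.5, 287 and 290.5 CPM in knockdown cells, against 349, 301 and 315 CPM in NC cells. Its groups were separated by a narrow margin (log2 fold change -0.19, SE 0.13; -0.10 with the offsets, where they overlapped), and 1033 bases of its exons overlap ATP6V1C2 on the opposite strand. The secreted stress-inducible factors MANF and CRELD2 had log2 fold changes of 0.06 (SE 0.18) and 0.16 (SE 0.21), with overlapping groups. With the offsets both were below 0, MANF at -0.17 and CRELD2 at -0.03. Every knockdown library of MANF was then below every NC library, while the groups of CRELD2 still overlapped.

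**Figure D2:**
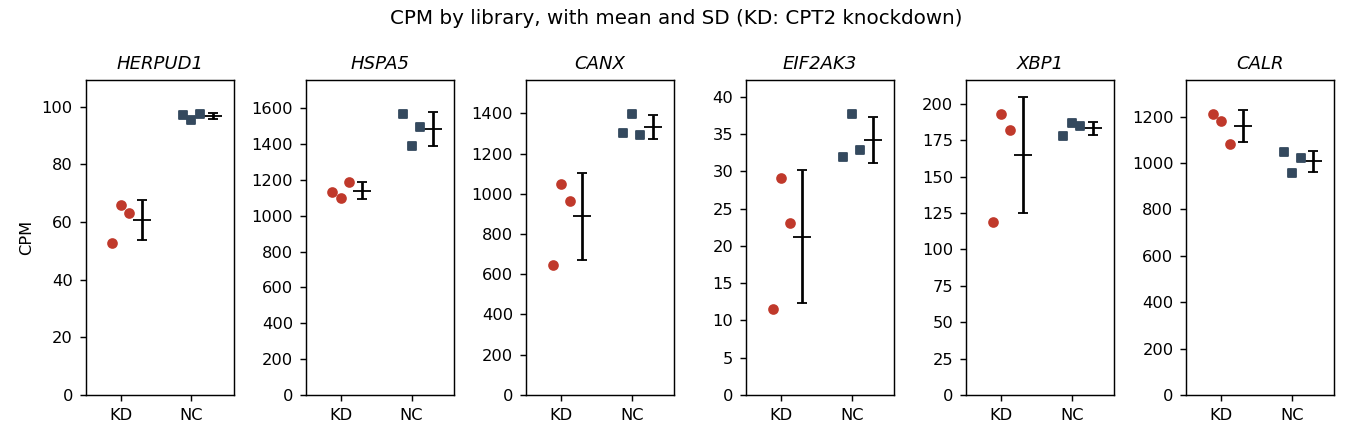
CPM of HERPUD1, HSPA5, CANX, EIF2AK3, XBP1 and CALR in each library (y axes from 0), with CPT2 knockdown (KD) left of NC; the bar beside each group is its mean with SD, n = 3. HERPUD1 in NC cells spanned 95.5 to 97.6 CPM, above every knockdown library, while XBP1 overlapped between the groups.

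Within ERAD, 4 of 10 genes were lower in every CPT2 knockdown library than in any NC library. They were HERPUD1, EDEM1, SEL1L and, by a small margin, DERL1, where 12.2% of all genes had that order. With the offsets 3 of the 10 were lower in this way, where the share was 10.7%. By the same offsets 1, OS9, was higher, where the share was 9.15%. HERPUD1 (ENSG00000051108, plus strand of chromosome 16, positions 56932048 to 56944863, GRCh38) encodes HERP, a stress-inducible membrane protein with a ubiquitin-like domain that binds the HRD1 complex. It had 52.8, 66.0 and 63.2 CPM in CPT2 knockdown cells, against 97.1, 95.5 and 97.6 CPM in NC cells. The NC libraries were almost equal and every knockdown library was well below them, with a fitted difference of 37.3% (log2 fold change -0.67, SE 0.14, 95% interval -1.002 to -0.35). Over all genes this did not pass by edgeR (adjusted p = 0.338) and passed by DESeq2 (log2 fold change -0.68, SE 0.16, adjusted p = 0.0171). With the offsets it was -0.63 (SE 0.09; edgeR, adjusted p = 0.149), and over all alternatives it ran from -0.98 to -0.59 with adjusted p-values of 0.00856 to 0.772.

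SEL1L, which holds HRD1 in its complex, had 13.4, 25.9 and 23.5 CPM in knockdown cells, against 31.3, 39.2 and 32.4 CPM in NC cells. Its groups did not overlap (log2 fold change -0.71, SE 0.25; -0.48 without knockdown replicate 1 and -0.28 with the offsets). EDEM1, a mannosidase-like protein that marks glycoproteins for degradation, had 29.2, 44.2 and 39.3 CPM in knockdown cells, against 51.8, 64.1 and 54.3 CPM in NC cells. All knockdown libraries were lower (log2 fold change -0.59, SE 0.19; -0.32 with the offsets), whereas the related EDEM2 had 0.17 (SE 0.19) with overlapping groups. DERL1, a derlin of the membrane channel, had 39.4, 41.8 and 38.9 CPM in knockdown cells, against 43.4, 46.5 and 47.6 CPM in NC cells. The gap between its groups was small, its log2 fold change of -0.20 (SE 0.15) became 0.16 with the offsets, and 396 bases of its exons overlap TBC1D31 on the opposite strand.

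On the higher side, OS9, the lectin that passes trimmed glycoproteins to SEL1L, had 273, 167 and 195 CPM in knockdown cells, against 170.5, 132 and 157.5 CPM in NC cells. Knockdown replicate 2 lay inside the NC range and replicate 1 was far above it. Its log2 fold change of 0.47 (SE 0.20; edgeR, adjusted p = 0.338) became 0.23 without knockdown replicate 1. DERL3, the derlin of secretory cells, had 13.2, 5.28 and 7.13 CPM in knockdown cells, against 5.87, 6.45 and 6.86 CPM in NC cells. Its log2 fold change of 0.42 (SE 0.32) rested on knockdown replicate 1 and was -0.05 without it. Over all its annotated exons, 2923 bases overlap exons of SMARCB1 on the opposite strand, so its counts are uncertain. The ligase SYVN1, the derlin DERL2 and the ATPase VCP were close to level, with log2 fold changes of -0.04 (SE 0.18), 0.06 (SE 0.16) and -0.02 (SE 0.14); with the offsets these were -0.17, 0.52 and -0.01. Of these, SYVN1 shares 398 exon bases with FAU on the same strand.

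All 6 sensors and transducers had log2 fold changes below 0 on the counts as deposited, except that ATF6 was above 0 with the offsets and XBP1 without knockdown replicate 1. None passed by edgeR. At an unadjusted p under 0.05 by edgeR, 2 of the 6 were lower, where 5.29% of all genes were. EIF2AK3, the kinase PERK, had 11.5, 29.2 and 23.1 CPM in CPT2 knockdown cells, against 32.0, 37.8 and 32.9 CPM in NC cells. The groups did not overlap, and knockdown replicate 1 was far below the others (log2 fold change -0.69, SE 0.30; -0.40 without it and -0.47 with the offsets). ERN1, the kinase and endonuclease IRE1, had 20.2, 26.2 and 24.2 CPM in knockdown cells, against 26.6, 33.1 and 33.7 CPM in NC cells. Its groups were apart only by the margin between knockdown replicate 2 and NC replicate 1 (log2 fold change -0.40, SE 0.18; -0.26 with the offsets). ATF6, the membrane-bound transcription factor, had 45.1, 64.0 and 55.8 CPM in knockdown cells, against 65.3, 71.5 and 61.0 CPM in NC cells. Knockdown replicate 2 lay within its NC range, and the log2 fold change of -0.26 (SE 0.17) became 0.15 with the offsets.

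XBP1 encodes the transcription factor downstream of IRE1. It had 119, 193 and 182 CPM in knockdown cells, against 178, 187 and 185 CPM in NC cells. Knockdown replicate 1 was low while replicates 2 and 3 were at NC levels, so the log2 fold change of -0.15 (SE 0.19; edgeR, adjusted p = 0.640) was 0.03 without replicate 1. Counts per gene do not separate the spliced from the unspliced XBP1 mRNA. CREB3L2 (BBF2H7), a membrane-bound factor related to ATF6, had 77.5, 114 and 98.4 CPM in knockdown cells, against 134, 152 and 128 CPM in NC cells. Every knockdown library was lower (log2 fold change -0.52, SE 0.17; -0.30 with the offsets). MBTPS1, which cuts ATF6 in the Golgi, had a log2 fold change of -0.15 (SE 0.16).

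For entry and export, SEC24D, a cargo-binding subunit of the COPII coat that leaves the ER, had the lowest log2 fold change of the 32 genes. It had 21.6, 68.2 and 56.5 CPM in knockdown cells, against 72.6, 108 and 79.4 CPM in NC cells. The groups did not overlap, but knockdown replicate 1 was far below the other libraries (log2 fold change -0.83, SE 0.37; -0.48 without it). SEC61B, a subunit of the entry channel, had 0.19 (SE 0.16) and -0.09 with the offsets.

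**Figure D3:**
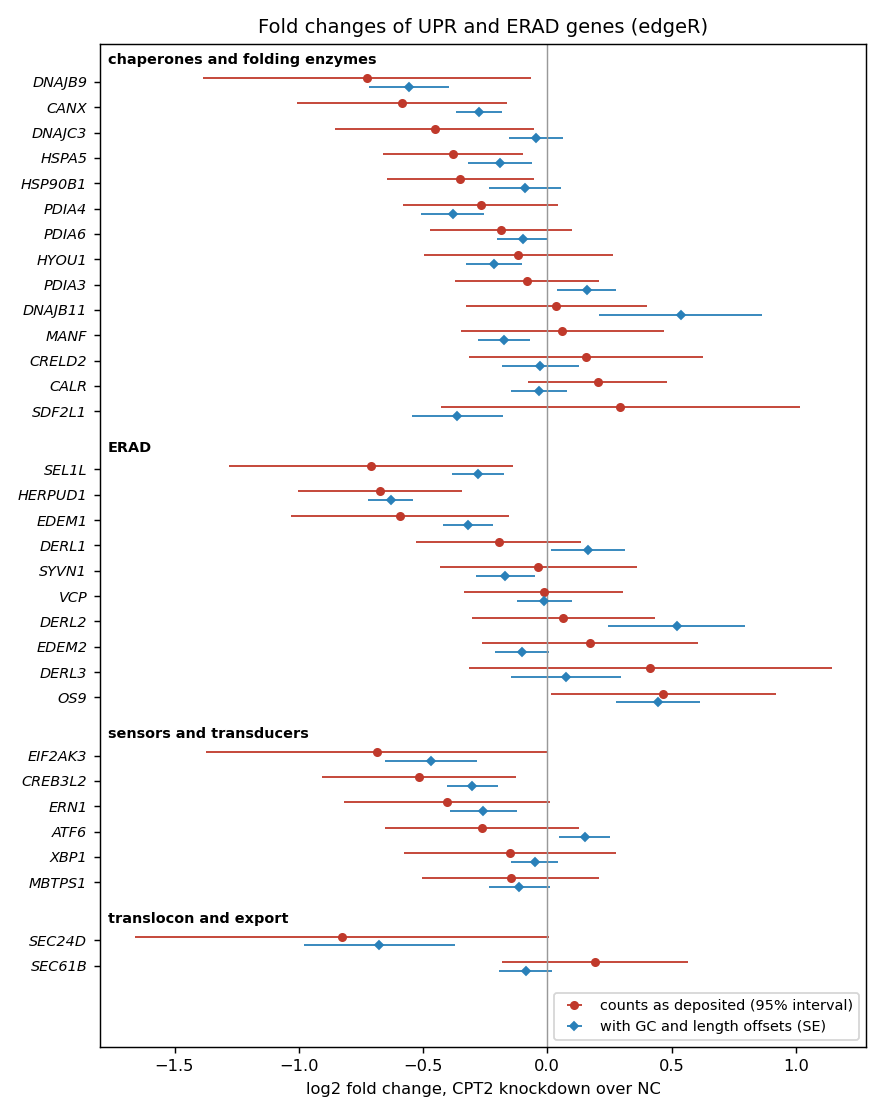
Log2 fold change of each gene, CPT2 knockdown over NC (x axis), from edgeR on the counts as deposited (red circles, bars are 95% intervals) and with GC and length offsets (blue diamonds, bars are SE). HERPUD1 kept nearly the same value in both (-0.67 and -0.63), while DNAJC3 moved from -0.45 to -0.04 and CALR from 0.20 to -0.03.

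By role, the median log2 fold change was -0.15 for the 14 chaperones and folding enzymes (9 below 0, 5 above), -0.03 for the 10 ERAD genes (6 below, 4 above) and -0.33 for the 6 sensors and transducers. In single libraries, the median difference of the chaperones from the NC mean was -0.23, -0.26 and -0.15 on the log2 scale in knockdown replicates 1, 2 and 3, against 0.08, -0.09 and -0.005 in NC replicates 1, 2 and 3. The groups were apart for this class. ERAD genes had medians of 0.07, -0.16 and -0.06 in the knockdown libraries, against 0.04, -0.02 and -0.01 in the NC libraries, which overlapped; the ERAD median was 0.02 without knockdown replicate 2 and 0.03 without NC replicate 1. Sensors and transducers had medians of -0.62, -0.13 and -0.30 in the knockdown libraries, against -0.04, 0.11 and -0.08 in the NC libraries, with replicate 1 the lowest. These medians are descriptions of chosen genes and were not tested.

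A trend of fold change with transcript GC content ran through all genes, the 32 included. When 13207 annotated genes were cut into 10 equal classes by GC content, the median was -0.41 in the lowest class (30.2% to 38.6%) and 0.48 in the highest (62.0% to 74.7%). Spearman's rho between GC content and log2 fold change was 0.68 across those genes and 0.55 across the 32 genes, which share the same 6 libraries, and 0.40 across the 32 without knockdown replicate 1. The 32 genes had a median GC content of 47.0%, against 48.9% in all genes. In offsets from a smooth curve of each library on GC content and length, 25 of the 32 had a log2 fold change below 0 and 7 above, with a median of -0.11 (all genes -0.01); the medians were -0.14 for chaperones, -0.06 for ERAD genes and -0.18 for sensors. The groups then did not overlap for 10 genes that were lower, DNAJB9, PDIA4, CANX, MANF, HERPUD1, EDEM1, SEL1L, EIF2AK3, CREB3L2 and SEC24D, where 10.7% of all genes had that order. OS9 was the 1 gene above, where the share was 9.15%. By edgeR with offsets 0 of the 32 were called, where 0.0227% of all genes were, and at an unadjusted p under 0.05 8 were lower, where 5.91% of all genes were, and 1 was higher, where 7.17% were.

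**Figure D4:**
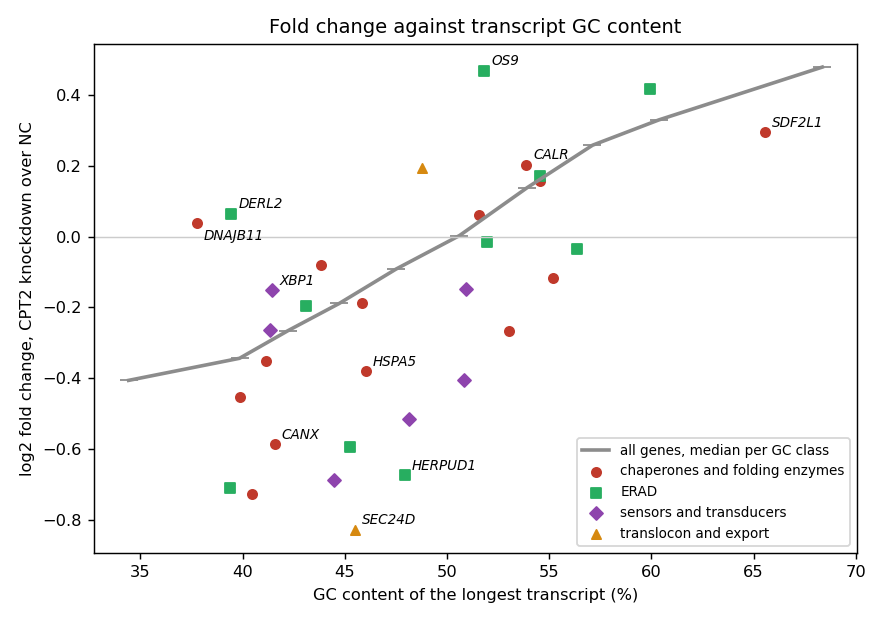
Log2 fold change, CPT2 knockdown over NC (y axis), against GC content of the longest transcript in percent (x axis), for the 32 genes by role; the grey line joins the medians of all annotated genes in 10 classes by GC content. HERPUD1, at 47.9% GC and -0.67, lay below the median of its class (-0.09), while CALR, at 0.20, lay near that of its class (0.14).

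HERPUD1 differed little with and without the offsets. With them it had 62.3, 69.2 and 65.8 CPM in knockdown cells, against 101, 100.4 and 104 CPM in NC cells. HSPA5 moved more, to 1505, 1126 and 1296 CPM in knockdown cells, against 1595, 1344 and 1545 CPM in NC cells. Knockdown replicate 1 then lay inside the NC range of HSPA5 (log2 fold change -0.19, SE 0.13). The medians of the chaperones by library became -0.06, -0.24 and -0.16 in knockdown cells, against 0.07, -0.12 and 0.02 in NC cells, so that knockdown replicate 1 lay above NC replicate 2. For sensors they were -0.40, -0.07 and -0.09 in knockdown cells, against -0.02, 0.05 and -0.02 in NC cells. The part of GC content, mitochondrial share and knockdown replicate 1 in the differences that were not adjusted for them was not tested.

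**Figure D5:**
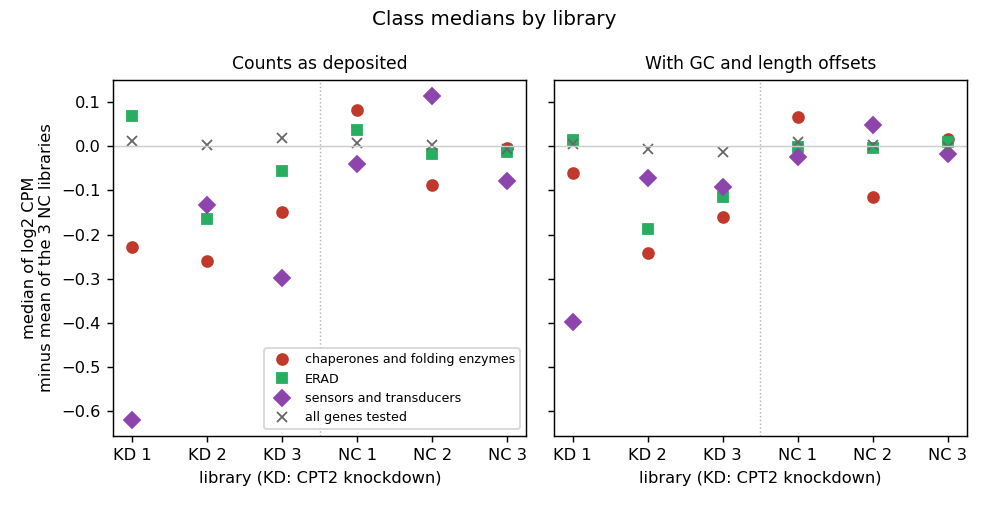
Median over the genes of each role of log2 CPM minus the mean of the 3 NC libraries (y axis), by library (x axis; KD, CPT2 knockdown), for counts as deposited (left) and with GC and length offsets (right). Sensors and transducers were lowest in knockdown replicate 1 in both panels (-0.62 and -0.40), and chaperones were below the NC mean in all knockdown libraries.

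A further 100 genes of the same pathways were set beside them. None was called by edgeR or DESeq2; by edgeR 11 were lower and 9 higher at an unadjusted p under 0.05, where the shares over all genes were 5.29% and 9.18%. Of the 100, 61 had a log2 fold change below 0 and 39 above, with a median of -0.13, and the groups did not overlap for 26 that were lower and 12 that were higher, where each order took 12.2% of all genes. With the offsets 55 were below 0 and the median was -0.05. COPII coat and export genes were below 0 in 9 of 10 (median -0.30), from SEC23A, an inner coat subunit, at -0.88 (SE 0.36) to SEC13, an outer coat subunit, at 0.29 (SE 0.13). Other ERAD genes were below 0 in 15 of 24 (median -0.23), from UBXN4, which anchors VCP to the ER, at -0.67 (SE 0.34) to TMUB1, a membrane protein with a ubiquitin-like domain, at 1.08 (SE 0.26). Subunits of the oligosaccharyltransferase, which attaches N-glycans, were below 0 in 8 of 11 (median -0.11), from MAGT1 at -0.62 (SE 0.25) to KRTCAP2 at 0.70 (SE 0.31). The translocon and signal peptidase genes were below 0 in 10 of 14 (median -0.05), from TRAM1 at -0.56 (SE 0.35) to SSR2 at 0.32 (SE 0.19). With the offsets these lists moved. COPII genes were then below 0 in 7 of 10 (median -0.17) and other ERAD genes in 12 of 24 (median -0.02). Oligosaccharyltransferase subunits were below 0 in 7 of 11 (median -0.14), and translocon and signal peptidase genes in 5 of 14 (median 0.07).

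Of the folding enzymes and glycan-trimming genes outside the 32, 10 of 22 were below 0 (median 0.13), from the oxidase ERO1B at -0.70 (SE 0.26) to the prolyl isomerase FKBP2 at 0.70 (SE 0.28). With the offsets 9 of the 22 were below 0, with a median of 0.02. Regulators of the response were below 0 in 4 of 12 (median 0.14), from PPP1R15B, a subunit of the eIF2 alpha phosphatase, at -0.66 (SE 0.28) to TRAF2, an adaptor of IRE1, at 0.49 (SE 0.22); with the offsets 8 of the 12 were below 0. Among 7 genes downstream of PERK and ATF4, 5 were below 0 (median -0.46). DDIT3, which encodes the stress factor CHOP, had 7.63, 5.89 and 5.11 CPM in knockdown cells, against 8.50, 11.2 and 12.7 CPM in NC cells. Its groups did not overlap (log2 fold change -0.80, SE 0.24; edgeR, adjusted p = 0.338), while TRIB3, a pseudokinase induced by CHOP, was at 0.26 (SE 0.18). With the offsets all 7 were below 0, with a median of -0.56.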

How the data were processed

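Poly(A) RNA was sequenced from 3 CPT2 knockdown and 3 NC libraries. The authors deposited raw counts per gene, which were not normalized, and FPKM values beside them, per the file headers. The deposited table also holds a p-value, a log2 fold change and a call that the authors made with DESeq2, per the file headers; these are used here only where the authors' table is named. The submitters' processing notes name build GRCh38 and, without roles, DESeq2, edgeR, StringTie, Bowtie2, TopHat2 and HISAT2. Strand in counting was not given in the sources used here, so reads of overlapping genes are uncertain. Besides the overlaps given above, exons overlap other genes on the opposite strand for PDIA3 (627 bases), DNAJB11 (381), SYVN1 (356) and DERL2 (301). The same holds for DNAJB9 (183 bases), CRELD2 (168), CANX (150) and HSP90B1 (121).

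After 17 lines without a gene were left out, 24154 genes remained, 4180 of them new loci with 5.32% to 7.18% of counts. The test on counts was that of edgeR 4.0.16 in R 4.3.3 (filterByExpr, TMM, quasi-likelihood F-test, robust) and Benjamini-Hochberg adjustment over 15302 genes at 0.05. CPM used library sizes scaled by TMM; differences of log2 CPM and medians follow from them. Transcript GC content, length and exon overlaps came from GENCODE 29 on GRCh38 (longest transcript); offsets came from a loess (span 0.3) of each library on GC content and length. Alternatives were DESeq2 1.42.0, limma 3.58.1 (voom, and trend on log2(FPKM + 1)), other scalings, no filter, the replicate number as a block, and leaving out each library. The tests were tested on simulated data.

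The 32 genes and the other pathway lists were chosen with earlier results of these data known. Values in every library are given as CPM for HSPA5, HERPUD1, XBP1, ERN1, ATF6 and EIF2AK3, for genes whose groups did not overlap and for the 3 largest log2 fold changes in each direction; of the other lists the genes at both ends are named, and DDIT3 is one of these. Total counts of 28353790 to 29449380 set the counting precision.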

Additional observations from a re-analysis of the deposited data

How the results depend on the processing

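Of the 32 genes, 17 kept their direction under every alternative and 15 reversed under at least 1. Under at least 1 alternative 8 were called. Without the replicate block only HERPUD1 was called, by DESeq2, which called 0.118% of all genes. The fits with the replicate block, which called the others, called 4.14% and 4.72% of all genes. Over all genes, edgeR called 2, and the count was 17 with DESeq2, 1 with limma-voom, 1 at an adjusted p of 0.01, 1 to 5 when each library was left out, and 0 with limma-trend on log2(FPKM + 1), where 2144 genes had an unadjusted p under 0.05. DESeq2 called 1 of the 32, HERPUD1, at -0.68; both limma tests called 0 of the 32, with 11 (voom) and 12 (trend) lower at an unadjusted p under 0.05, where 7.16% and 9.44% of all genes were. Library size alone put the median of all genes at -0.13; the medians were then -0.29 for chaperones and -0.17 for ERAD genes, which are -0.17 and -0.04 relative to all genes, and DNAJB11 (-0.11), MANF (-0.083) and DERL2 (-0.079) reversed. On the FPKM scale the median of all genes was -0.07. The medians there were -0.28 for chaperones and -0.16 for ERAD genes, which are -0.21 and -0.09 relative to all genes. On that scale DNAJB11 (-0.12), MANF (-0.075) and DERL2 (-0.14) reversed. The GC and length offsets reversed CPT2 (0.018), SDF2L1 (-0.36), PDIA3 (0.16), CALR (-0.031), MANF (-0.17), CRELD2 (-0.028), EDEM2 (-0.10), DERL1 (0.16), ATF6 (0.15) and SEC61B (-0.086). Without each library in turn, the ERAD median ran from -0.12 to 0.028, 16 to 25 of the 32 genes did not overlap between the groups, where 27.5% to 58.2% of all genes did not (25, with 17 below and 8 above, and 58.2% without CPT2 knockdown replicate 2; 16 and 24.4% with every library), and these genes differed in sign: DNAJB11 (-0.079 to 0.11), MANF (-0.032 to 0.19), EDEM2 (-0.0034 to 0.31), DERL2 (-0.024 to 0.16), DERL3 (-0.053 to 0.67), VCP (-0.12 to 0.049), SYVN1 (-0.22 to 0.093) and XBP1 (-0.29 to 0.027). The cause of these differences was not tested.

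The replicate numbers share no stated origin, so the main test did not pair the libraries. Deviations of same-numbered libraries from their group means correlated at 0.25, 0.36 and 0.007 for numbers 1, 2 and 3. Over the 32 genes alone the correlations were 0.61, 0.78 and 0.26. In both sets knockdown and NC replicates 1 and 2 correlated best with the same number in the other group. Knockdown replicate 3 did so over the 32 genes, at 0.26 against 0.05 with NC replicate 2. Over all genes its correlations with NC replicates 1, 2 and 3 were 0.004, -0.0099 and 0.007, too close to rank. Deviations within a group cancel, so correlations of both signs were forced. NC replicate 3 correlated best with knockdown replicate 1, at 0.09 over all genes and 0.36 over the 32. Whether the numbers pair the libraries is not known. With the number as a replicate block edgeR called 633 genes (4.14%), among them 5 of the 32: CANX, HERPUD1 (-0.68), EDEM1, SEL1L and SEC24D. Their adjusted p-values by edgeR were 0.0479 to 0.0499, just under the threshold, and DNAJB9 and CREB3L2 were just over it at 0.05015. With the offsets and the replicate block together it called 624 genes (4.72%), among them 4 of the 32, DNAJB9, PDIA4, HERPUD1 (-0.63) and OS9; SDF2L1 (-0.38), PDIA3 (0.16), CALR (-0.039), MANF (-0.18), CRELD2 (-0.025), EDEM2 (-0.11), DERL1 (0.15), ATF6 (0.15) and SEC61B (-0.089) then reversed.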
